A study of Mus musculus with 7 samples.

Results

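The collagen genes were described in libraries of mouse pharyngeal arches made by chromatin immunoprecipitation with an anti-V5 antibody and sequencing (ChIP-seq). The members are the genes of the count table whose RefSeq symbol has the form Col, number, a, number, and whose deposited length is at most 300000 bp. That gave 41 genes of 27179, namely 11 fibrillar collagens, 8 network collagens and 22 other collagens. A further 3 collagen genes were longer and were left out. The tissue came from C57BL/6 embryos at E10.5 and comprised their first and second arches. In the V5 group both copies of Kat6a, which encodes the histone acetyltransferase MOZ, were fused in frame, at their own locus, to a Flag-V5-BIO tag on the carboxy-terminus; the series describes mice with this allele on both chromosomes as fertile and healthy. The wild-type group, which lacks a V5 epitope, served as negative control with the same antibody. Each genotype had 3 ChIP libraries, and 1 input library of tagged arches was made without antibody. Whether replicates are separate embryos or pools is not said in the labels, so the p-values reflect how these libraries spread, and that spread may be technical.

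Collagens are extracellular proteins whose chains wind around each other in a triple helix built on a repeat with glycine. Fibrillar collagens align into the banded fibrils of bone, tendon, skin and cartilage; network collagens, above all type IV, form the sheets of basement membranes; the other families decorate fibrils, anchor epithelia or span the cell membrane. The mesenchyme of the pharyngeal arches, largely derived from neural crest, later forms cartilage, bone and connective tissue of the face and neck. MOZ acetylates histones at regulatory regions of active genes. The values here are reads of genomic DNA in whole genes, and therefore show neither collagen mRNA nor binding at a defined site.

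Sequence just before the gene start is shown for 3 of the 4 members whose V5 libraries all exceeded the wild-type libraries, and for Col3a1, which stood far above the input in both genotypes. The choice was made after the values were seen. Each run covers the bases from 250 to 51 before the start that the RefSeq promoter table uses, 5′ to 3′ on the strand of the gene, in GRCm38.p6, the assembly behind mm10: chr6:4505368-4505567 (+) for Col1a2, chr2:27886175-27886374 (+) for Col5a1, chr1:90844022-90844221 (-) for Col6a3 and chr1:45311288-45311487 (+) for Col3a1. Capitals mark matches, on either strand, to the TATA motif (TATAAA), the CCAAT box (CCAAT) and the GC box (GGGCGG), and these matches do not overlap each other.
Col1a2: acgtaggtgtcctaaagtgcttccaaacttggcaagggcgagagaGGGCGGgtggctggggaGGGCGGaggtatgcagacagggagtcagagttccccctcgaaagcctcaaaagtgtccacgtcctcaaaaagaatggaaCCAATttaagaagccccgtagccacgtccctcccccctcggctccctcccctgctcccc
Col5a1: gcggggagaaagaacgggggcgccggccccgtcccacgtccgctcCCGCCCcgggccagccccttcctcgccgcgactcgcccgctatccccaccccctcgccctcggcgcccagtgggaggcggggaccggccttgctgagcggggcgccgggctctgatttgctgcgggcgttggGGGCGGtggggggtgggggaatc
Col6a3: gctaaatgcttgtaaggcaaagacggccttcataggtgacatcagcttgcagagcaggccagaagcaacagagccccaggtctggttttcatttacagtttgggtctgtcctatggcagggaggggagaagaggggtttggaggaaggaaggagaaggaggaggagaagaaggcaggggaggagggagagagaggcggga
Col3a1: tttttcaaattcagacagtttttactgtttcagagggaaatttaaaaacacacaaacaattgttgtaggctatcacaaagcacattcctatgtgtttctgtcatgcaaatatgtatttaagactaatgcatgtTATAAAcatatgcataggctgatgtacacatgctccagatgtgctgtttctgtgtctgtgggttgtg
For Col5a1 and Col6a3 the start in that table lies inside the gene span printed here, so their runs end 7 and 21 bp from the span, and those of Col1a2 and Col3a1 end 51 bp from it. None of these bases lies inside the span of the gene it precedes. Whether reads that cover them and reach into the span entered its count is not given. The Col1a2 stretch held 9 CpG dinucleotides, 2 GGGCGG and 1 CCAAT match. Col5a1 had 25 CpG and 2 GGGCGG matches, Col6a3 had 2 CpG and no match, and Col3a1 had 0 CpG and 1 TATAAA match. RefSeq promoters were matched for 32 of the 41 members, with 35 windows of this length, whose median was 6 CpG against 4 over all 32851 windows. GGGCGG was present in 17 of the 35 windows and in 24.6% of all windows, CCAAT in 9 and in 28.4%, and TATAAA in 4 and in 9.14%. These matches describe letters in a window, not sites in use.

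The ChIP libraries held 806648 to 3286602 counts and the input 3488745, and the collagen genes took 0.374% to 0.407% of the counts of a ChIP library and 0.321% of the input. Levels are in CPM, the counts of a gene per 1000000 counts of its library. By counting error alone, 0 counts allowed a level of up to 3.72 CPM in the shallowest library (V5 replicate 1) and 0.913 in V5 replicate 3. Wild-type replicate 2 stood apart in chromosome X, with 2.77% of its counts there against 3.94% to 4.51% in the other 6 libraries. DNA reads do not identify cell types. Reads in 5 endothelial marker genes summed to 258 to 293 CPM in V5, 223 to 244 in wild type and 263 in the input. By log2 fold change of V5 over wild type, 4 of the 5 were positive and 1, Kdr, was negative. Means were 27.6 against 6.25 CPM for Tie1, 135 against 108 for Tek and 34.7 against 41.9 for Kdr. Arch mesenchyme, epithelial and blood marker sums overlapped between the genotypes. The part of these markers in the collagen values was not tested. Fewer cells with a signal and less signal per cell cannot be told apart in such libraries.

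The comparison of V5 with wild-type libraries asks where tagged MOZ lay above the background of the antibody. No collagen gene passed it, and the summed collagen reads differed between the groups by less than the spread of the replicates. The 41 genes together had 3883, 4068 and 3940 CPM in V5 replicates 1 to 3, 4019, 3742 and 3888 CPM in wild type, and 3211 CPM in the input. The groups overlapped, with 3964 ± 94.8 CPM in V5 and 3883 ± 139 CPM in wild type (SD, n = 3), a ratio of 1.02.

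Of the 41 members, 39 had enough reads for the gene-level test and 0 of them passed, where 0% of the 14575 genes tested passed (edgeR's quasi-likelihood test, adjusted p under 0.05; DESeq2 called 0 and limma-voom 4 of all genes). At an unadjusted p under 0.05 there was 1 collagen gene, Col4a5, or 1 of 39, beside 4.12% of all tested genes. The log2 fold change was positive in 26 of the 39 (66.7%), with a median of 0.07, and in 52.0% of all tested genes, with a median of 0.02. All V5 libraries lay above all wild-type libraries in CPM in 4 of the 39 members, or 10.3% (4.83% of tested genes), and below them in 0 (5.27%). The 4 were Col1a2, Col5a1, Col11a2 and Col6a3. Whether so few genes differ from the share over all genes was not tested.

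**Figure D1:**
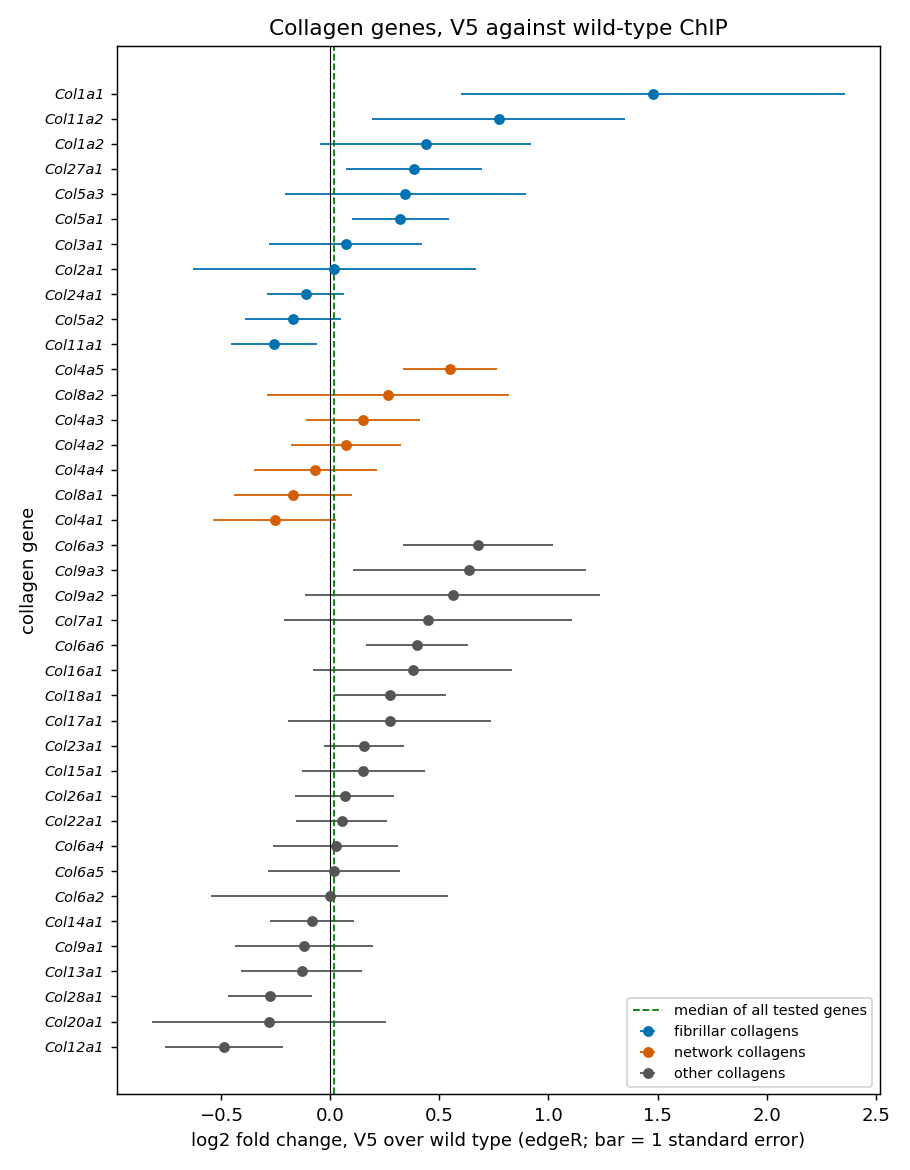
Log2 fold change of V5 over wild-type ChIP for the 39 tested collagen genes, sorted within the fibrillar, network and other classes; points are edgeR estimates, bars 1 standard error, and the dashed line the median of all tested genes. Values run from -0.49 in Col12a1 to 1.48 in Col1a1, most with bars that reach or pass 0.

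Among fibrillar collagens, 8 of 11 stood above 0 in log2 fold change, with a class median of 0.32, and 3 lay wholly above wild type (4.83% of all tested genes did). Their summed reads nonetheless overlapped, with 1062, 1017 and 1054 CPM in V5, 1100, 1000 and 1066 CPM in wild type, and a ratio of 0.990. The class median weights all genes alike, while the sum is carried by long genes such as Col24a1 and Col11a1, both with negative values. Fibrillar members had a median length of 44985 bp, against 132810.5 bp for network and 104864 bp for other collagens. The part of gene length in the class values, against wild type or input, was not tested.

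Type I collagen, the main protein of bone, skin and tendon, is made of chains from Col1a1 and Col1a2. Col1a1 (GeneID 12842, chromosome 11, 94936224 to 94953042) collected 34, 2 and 41 reads in V5 replicates 1 to 3, against 15, 7 and 10 for wild type and 14 for the input. V5 replicate 2 was the lowest of all 7 libraries in CPM and V5 replicate 1 the highest, so the groups overlapped. Its log2 fold change of 1.48 (SE 0.88, adjusted p = 0.980 by edgeR), the highest among the members, was 0.11 without V5 replicate 1. It was 2.05 without wild-type replicate 1. Col1a2 (GeneID 12843, chromosome 6, 4505618 to 4541543) had 44.6, 26.4 and 26.8 CPM in V5, 25.6, 23.4 and 24.4 CPM in wild type and 16.9 CPM in the input. The V5 libraries lay above, replicates 2 and 3 narrowly. The log2 fold change of 0.44 (SE 0.48) was 0.09 without V5 replicate 1 and 0.60 without V5 replicate 3.

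Types II and XI form the fibrils of cartilage. Col2a1 (chromosome 15, 97975602 to 98004724) had 34.7, 7.03 and 14.6 CPM in V5, 22.5, 18.8 and 15.2 CPM in wild type and 6.31 CPM in the input. The V5 libraries spanned the wild-type range on both sides, and the log2 fold change was 0.02 (SE 0.65), or -0.78 without V5 replicate 1. Col11a1 (chromosome 3, 114030479 to 114220756) had 145, 212 and 223 CPM in V5 against 193, 230 and 282 for wild type, with 151 in the input. It overlapped between the groups at -0.26 (SE 0.20), with -0.38 when wild-type replicate 1 was left out and -0.11 when wild-type replicate 3 was. Col11a2 (chromosome 17, 34038919 to 34066684), the partner chain, had 27.3, 27.2 and 22.8 CPM in V5, 6.98, 17.3 and 21.2 CPM in wild type and 10.03 CPM in the input. The groups stayed apart, V5 replicate 3 and wild-type replicate 3 narrowly, with a log2 fold change of 0.77 (SE 0.58, adjusted p = 0.980 by edgeR). It was 0.44 without wild-type replicate 1 and 1.1 without wild-type replicate 3. Col11a2 falls outside the rule for named genes and was chosen after its values were seen.

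Type V collagen starts fibril assembly and is mutated in classical Ehlers-Danlos syndrome. Col5a1 (chromosome 2, 27886381 to 28039510) had 135, 169 and 145 CPM in V5, 122, 131 and 113 CPM in wild type and 87.7 CPM in the input. Its groups did not overlap, although V5 replicate 1 was close to wild-type replicate 2, and its log2 fold change was 0.32 (SE 0.22; adjusted p = 0.980 by edgeR). Leaving out any library kept it between 0.24 and 0.38. Col5a2 (chromosome 1, 45374331 to 45503282), whose product pairs with that of Col5a1, had 141, 213 and 142 CPM in V5 against 227, 160 and 181 for wild type, with 97.2 in the input. Its groups overlapped at -0.17 (SE 0.22), with -0.38 when V5 replicate 2 was left out and -0.02 when wild-type replicate 1 was. Col3a1 (chromosome 1, 45311538 to 45349706), a fibrillar collagen of vessels and skin that lies 24624 bp from Col5a2, had 54.6, 51.8 and 54.8 CPM in V5, 51.2, 41.4 and 63.1 CPM in wild type and 18.6 CPM in the input. The genotypes overlapped, at 0.07 (SE 0.35) and -0.07 without wild-type replicate 2, and the input was the lowest library.

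**Figure D2:**
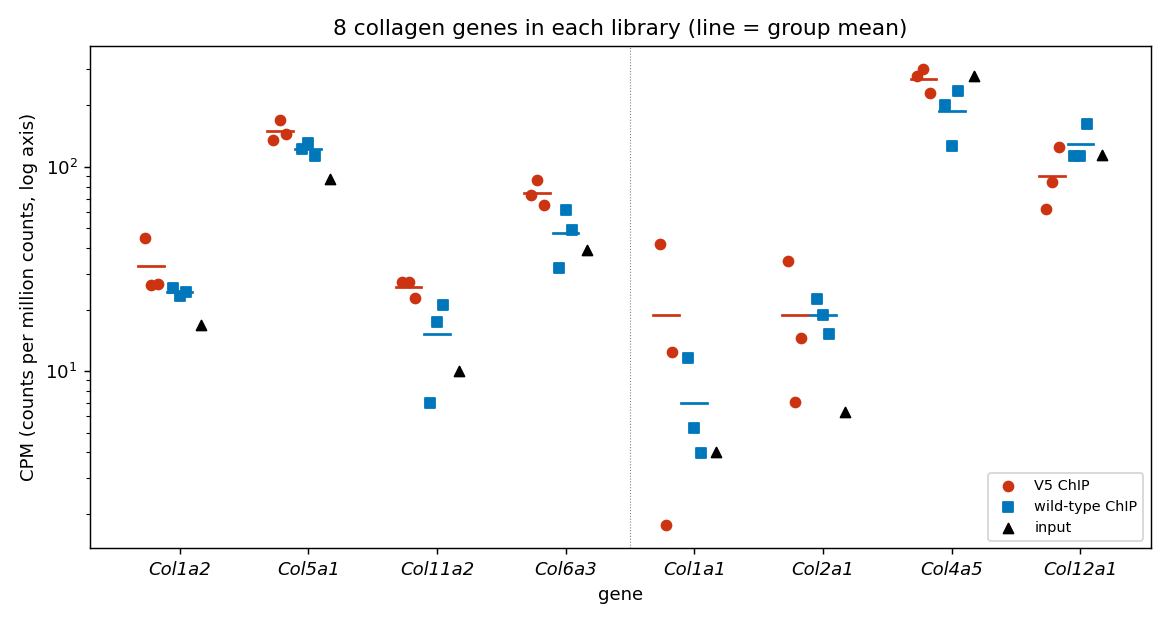
CPM on a log axis in each library for 8 collagen genes; circles are V5, squares wild-type ChIP libraries, triangles the input, and lines group means. Left of the dotted line are the 4 genes whose V5 libraries lay above all wild-type libraries, and right of it 4 genes whose groups overlapped, among them Col1a1 with 1.76 to 42.1 CPM in V5.

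Among network collagens 4 of 7 tested members were positive, with a median of 0.07, and all 7 overlapped between the groups in CPM. Their sum was 865, 826 and 821 CPM in V5 and 816, 664 and 849 CPM in wild type, where replicate 2 was low. Col4a5 (GeneID 12830, chromosome X, 141475370 to 141689236), a type IV chain mutated in Alport syndrome, had 278, 302 and 229 CPM in V5, 200, 127 and 236 CPM in wild type and 279 CPM in the input. Wild-type replicate 3 lay above V5 replicate 3, so the groups overlapped, with a log2 fold change of 0.55 (SE 0.21, adjusted p = 0.980 by edgeR). It was 0.33 without wild-type replicate 2, the library low in chromosome X, and 0.74 without wild-type replicate 3. Counted per 1000000 reads in genes of chromosome X, Col4a5 stood at 6871, 7665 and 5604 in V5, 4825, 4563 and 5346 for wild type and 6192 for the input. On that scale, chosen after the data were seen, the groups did not overlap and the log2 ratio of the means was 0.45, against 0.53 over all counts. The input, which had no antibody, lay within the V5 range on both scales.

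The chains found in nearly all basement membranes, those of Col4a1 and Col4a2, overlapped between the genotypes. Col4a1 (chromosome 8, 11198423 to 11312889) had 57.0, 83.5 and 87.9 CPM in V5, 82.3, 83.6 and 111 CPM in wild type and 53.9 CPM in the input, a value of -0.25 (SE 0.28) that was -0.11 without wild-type replicate 3. Col4a2 (chromosome 8, 11312805 to 11449287) had 107, 121 and 105 CPM against 117, 88.1 and 117, with 91.7 in the input, a value of 0.07 (SE 0.25) that was -0.05 without wild-type replicate 2. Col4a3, a chain of the kidney filter, had 190, 118 and 110 CPM against 147, 103 and 133, with 132 in the input, a value of 0.15 (SE 0.26) that was -0.20 without V5 replicate 1. Type VIII chains are short-chain network collagens and build the sheet under the corneal endothelium. Of these, Col8a1 had 59.5, 116 and 124 CPM in V5 against 121, 101 and 121 in wild type, with 74.0 in the input. V5 replicate 1 was the lowest library, and the value of -0.17 (SE 0.27) was 0.04 without it. Col8a2 stood at 0.26 (SE 0.56), or -0.14 without V5 replicate 3, and had 16.1, 18.5 and 34.7 CPM in V5, 21.7, 24.9 and 13.2 CPM in wild type and 46.2 CPM in the input, above every ChIP library. Col10a1, the collagen of hypertrophic cartilage (chromosome 10, 34389981 to 34397085, 7105 bp), lies wholly within the span of Nt5dc1 and had 0 counts in all 7 libraries. How reads in overlapping genes were counted is not given, so these zeros say nothing about the gene.

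Of the other collagens 14 of 21 tested members were positive, with a median of 0.07, and their sums of 1955, 2225 and 2064 CPM in V5 and 2103, 2078 and 1972 CPM in wild type overlapped. Type VI collagen forms beaded microfilaments around cells. Its gene Col6a3 (GeneID 12835, chromosome 1, 90766860 to 90844001) had 73.1, 86.1 and 65.4 CPM in V5, 31.8, 61.8 and 49.1 CPM in wild type and 39.0 CPM in the input. The groups did not overlap, V5 replicate 3 and wild-type replicate 2 being closest, and the log2 fold change of 0.68 (SE 0.34; adjusted p = 0.980 by edgeR) lay between 0.46 and 0.90 when any library was left out. Col6a6 had 150, 184 and 127 CPM in V5, 128, 101 and 126 CPM in wild type and 73.7 CPM in the input. V5 replicate 3 lay within the wild-type range. The value was 0.40 (SE 0.23), or 0.26 without V5 replicate 2 and 0.55 without V5 replicate 3. Col6a1 collected 3, 2 and 14 reads in V5, against 7, 3 and 2 for wild type and 1 for the input, too few for the gene-level test (two-sided exact permutation p = 0.9 on CPM, where 0.1 is the smallest that 3 against 3 allow). Over its 17253 bp the mean of the ChIP libraries was 0.176 CPM per kb, where the 39 tested members had 0.519 to 1.38. Col6a2 stood at -0.0016 (SE 0.54), Col6a5 at 0.02 (SE 0.30) and Col6a4 at 0.03 (SE 0.29).

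Collagens of the FACIT family, which sit on the surface of fibrils, were divided, with 4 of 8 positive. Col12a1 (chromosome 9, 79598987 to 79721141), which coats type I fibrils, had 62.0, 84.3 and 125 CPM in V5, 113, 113 and 163 CPM in wild type and 114 CPM in the input. V5 replicate 3 overlapped the wild-type range, and the log2 fold change of -0.49 (SE 0.27; adjusted p = 0.980 by edgeR), the lowest among the members, was -0.77 when V5 replicate 3 was left out and -0.30 when wild-type replicate 3 was. Col9a1, the partner of type II collagen in cartilage, had 43.4, 71.2 and 75.5 CPM against 63.6, 64.0 and 82.7, with 38.7 in the input, a value of -0.12 (SE 0.32) that was 0.03 without V5 replicate 1. The other type IX chains, Col9a2 and Col9a3, stood at 0.56 (SE 0.68) and 0.64 (SE 0.53). Col28a1, a collagen with von Willebrand factor A domains, had 150, 235 and 203 CPM in V5, 212, 264 and 246 CPM in wild type and 269 CPM in the input, a value of -0.27 (SE 0.19) with overlap that was -0.17 without V5 replicate 1. Col15a1 and Col18a1, whose products are basement membrane proteoglycans, stood at 0.15 and 0.27, and Col7a1, which anchors the epidermis, at 0.45 (SE 0.66).

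At the length limit, Col23a1, a transmembrane collagen of 294006 bp, had 377, 329 and 259 CPM in V5, 334, 293 and 259 CPM in wild type and 251 CPM in the input. Its groups overlapped, at 0.16 and -0.03 without V5 replicate 1. Just outside it Col4a6, of 308674 bp and 1274 bp away from Col4a5 on chromosome X, had 474.8, 230.1 and 303.4 CPM in V5. Wild type had 275.5, 229.8 and 312.2 CPM and the input 308.7 CPM, so the groups overlapped. With all 3 longer genes included, the ratio of V5 to wild-type collagen reads was 1.01.

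The summed reads of short collagen genes lay above wild type in all V5 libraries, in a division made after earlier results on gene length in these data were known. The 9 members of up to 30 kb summed to 1.52, 1.14 and 1.35 times the wild-type mean in V5 replicates 1 to 3. Wild type had 0.885 to 1.12, its highest library narrowly below V5 replicate 2. The V5 mean was 1.34 ± 0.192 (SD, n = 3), and 1.25 ± 0.0683 without Col1a1. In the 9 members of 30 to 100 kb the ratios were 1.04, 1.19 and 1.24, against 0.946 to 1.03; without Col6a3 the groups overlapped, with 0.944 in V5 replicate 1. The 23 members of 100 to 300 kb had 0.998 ± 0.0296 (SD, n = 3) and overlapped. All other genes, Chl1 left out for its very large share, had 1.06 ± 0.0489, 1.01 ± 0.0149 and 0.989 ± 0.0223 (SD, n = 3) in the same length classes. The step from long to short genes thus has the same sign there. Other genes of up to 30 kb also lay above wild type in all V5 libraries, at 1.03, 1.12 and 1.04 against 0.995 to 1.003. Among the 9 short collagens are Col10a1, with 0 counts, and Col6a1, with too few reads for the gene-level test. Col11a2, whose groups stayed apart, is among them too, and no sum was made without it. The 9 rest on as few as 145 counts in a library, and whether they differ from other short genes was not tested.

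**Figure D3:**
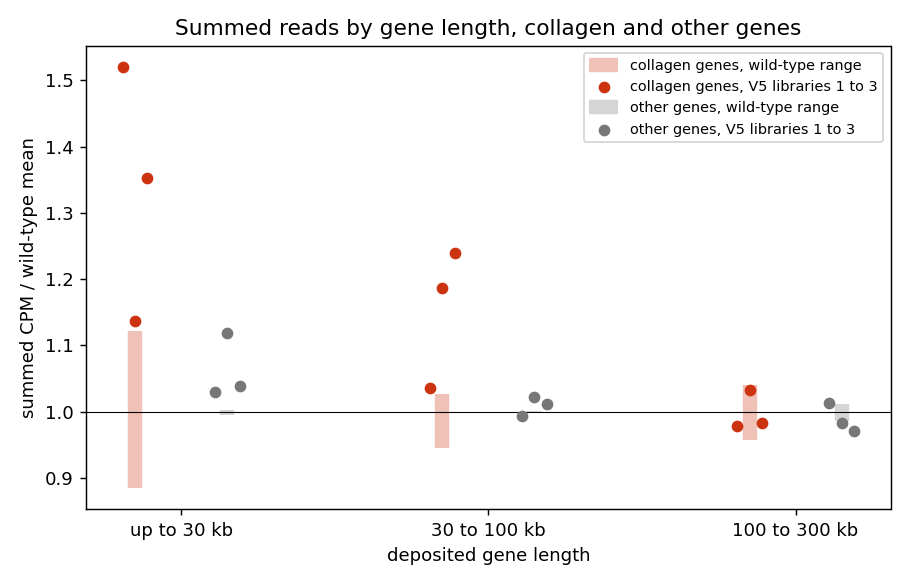
Summed CPM of collagen genes and of all other genes in 3 classes of deposited length, divided by the wild-type mean; points are the 3 V5 libraries and bars span the wild-type libraries. The V5 points of collagens up to 30 kb lie at 1.14 to 1.52, and those of 100 to 300 kb at 0.979 to 1.03.

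Set against the input, the fibrillar collagens had more reads in the ChIP libraries of both genotypes. The measure was the log2 ratio of mean ChIP CPM to input CPM, for genes with at least 70 counts in all libraries together; with 1 input library there is no test, and the V5 and wild-type ratios share that input. In 10 of 11 fibrillar genes the ratio was positive in V5 and in 10 of 11 in wild type, with medians of 0.77 and 0.63. Of all genes, 52.3% were positive in V5 and 50.1% in wild type. The other collagens were positive in 18 of 21 in V5 and 15 of 21 in wild type. For network collagens this was 4 of 7 and 3 of 7. Network collagens had medians of 0.07 and -0.05, the other collagens 0.39 and 0.24, and all 16736 genes 0.04 and 0.00. The input was below all 6 ChIP libraries in 14 of 39 collagen genes (11.6% of all genes), 6 of them fibrillar: Col1a2, Col2a1, Col3a1, Col5a1, Col5a2 and Col24a1. It was above all 6 in 2 of 39, Col8a2 and Col28a1 (15.4% of all genes).

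Col3a1 had ratios of 1.53 in V5 and 1.48 in wild type, and Col2a1 had 1.57 and 1.57. In both genes the ratio was about as large without the V5 epitope as with it. Per length, the tested collagens had a median of 0.840 to 0.910 CPM per kb in V5 libraries, 0.792 to 0.861 in wild type and 0.601 in the input, while all tested genes had 0.911 in the input and 0.818 to 0.957 in the ChIP libraries. The fibrillar median was 0.542 CPM per kb in the input, 0.851 to 1.10 in V5 and 0.652 to 0.773 in wild type. Col3a1 itself had a mean of 1.38 CPM per kb over the ChIP libraries, the highest of the tested members, and 0.488 in the input. The network median was 0.980 in the input.

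**Figure D4:**
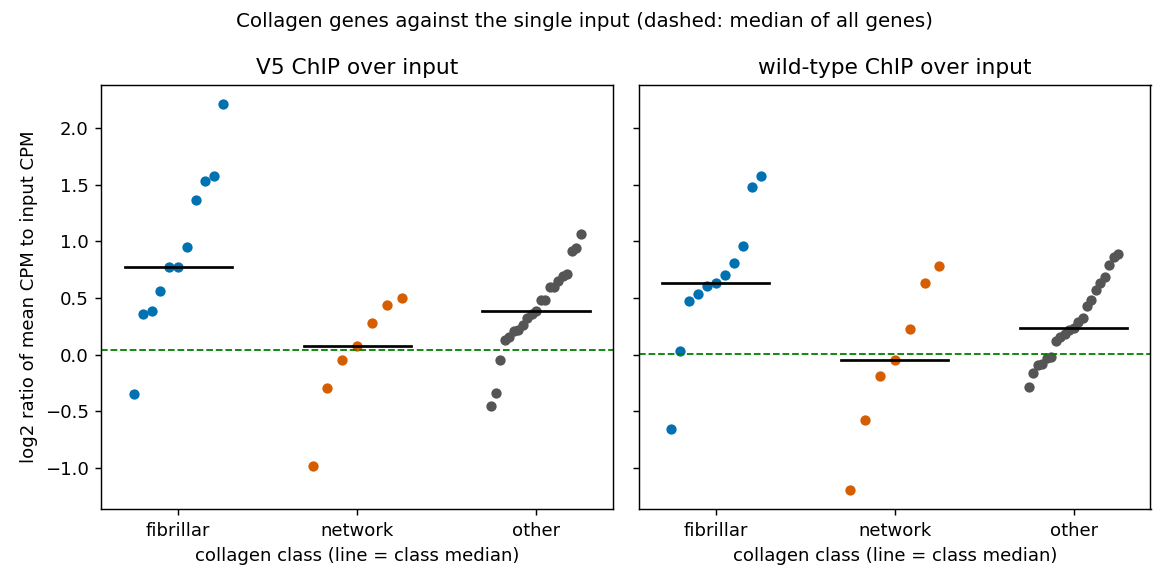
Log2 ratio of mean ChIP CPM to input CPM per collagen gene, for V5 (left) and wild type (right), by class; lines are class medians and the dashed line the median of all genes. Fibrillar genes lie mostly above 0 in both panels, with medians of 0.77 and 0.63.

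The replicates of a single collagen gene scattered more than counting error gives. The chi-square per degree of freedom, which is about 1 for counting error alone, had a median of 4.81 over tested collagens in V5 and 3.76 in wild type, beside 6.07 and 3.43 for all tested genes. Col1a1 reached 27.7 in V5 and Col6a5 25.02, while Col3a1 stood at 0.0695 in V5 and Col1a2 at 0.0683 in wild type.

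Genes that make, process, bind and regulate collagens gave no call either. Of 14 tested genes for modification and folding, 8 were positive and 0 passed, with a median of 0.34. Plod1, a lysyl hydroxylase, collected 42, 23 and 74 reads in V5, against 5, 22 and 45 for wild type and 100 for the input, a log2 fold change of 1.31 (SE 0.63; adjusted p = 0.980 by edgeR) without overlap in CPM. P3h3, of the prolyl 3-hydroxylase family, stood at 1.13 (SE 0.69), and Serpinh1, the collagen chaperone HSP47, at 1.01 (SE 0.90). Procollagen processing and crosslinking genes had 8 of 12 positive and a median of 0.13, with the propeptidase gene Adamts14 at 0.67 (SE 0.37), Pcolce2, an enhancer of propeptide cleavage, at -0.67 (SE 0.39) and the protease gene Tll1 at -0.26 (SE 0.18). Collagen receptors had 5 of 7 positive and a median of 0.03. Ddr2, a receptor tyrosine kinase for fibrillar collagen, lay wholly below wild type, V5 replicate 2 and wild-type replicate 3 only narrowly apart. Ddr2 had 80.1 ± 18.9 against 102 ± 11.01 CPM (SD, n = 3) and a value of -0.31 (SE 0.27). Of 4 tested regulators 2 were positive, with Sox6, a cartilage transcription factor, at 0.21 (SE 0.14), Runx2, which directs bone formation, at 0.06 (SE 0.21) and the bone factor Sp7 at -0.26 (SE 0.81). V5 lay wholly above wild type in 2 of 14 modification and folding genes, Plod1 and P3h3. It did so in 1 of 12 processing genes, Adamts14, and in 0 of 7 receptors and 0 of 4 regulators. Of all tested genes 4.83% did. The input had 28.66 CPM for Plod1, 24.94 for P3h3 and 65.35 for Adamts14, beside V5 means of 31.6, 20.21 and 61.52 CPM. It was thus above the V5 mean in P3h3 and Adamts14. V5 lay wholly below in 0, 1, 1 and 0 genes of these lists, in the same order, beside 5.27% of all tested genes. Whether these shares differ was not tested. No gene of these lists passed the threshold over all genes.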

How the data were processed

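For each of 7 ChIP-seq libraries the authors deposited raw counts of reads in genes, listed by Entrez identifier beside a length, per the file headers. Named in the submitters' processing notes, with neither version nor role, are the tools bcl2fastq, featureCounts and MACS and the genome build mm10. How reads were aligned, duplicates treated and overlaps counted is not given in the sources used. The 7 files of single libraries held the same values as the series table. Of 27179 genes, 25275 matched a symbol in the RefSeq table of GRCm38.p6, which also gave coordinates. The deposited length was within 1% of the RefSeq span in 33 of 41 collagen genes, so introns were counted in these; Col22a1, with 235752 bp counted in a span of 355185 bp, is less certain. Another gene of the table overlaps 8 members, of which 7 by under 1% of their span. Reads in neighbouring family members with similar exons, and antisense reads, are not separated by these counts.

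V5 and wild-type libraries were compared by the two-sided quasi-likelihood test of edgeR 4.0.16, run in R 4.3.3 on genes kept by filterByExpr (minimum count 10) with TMM scaling and a robust fit; p-values were adjusted by Benjamini-Hochberg over all 14575 genes, and calls were made at 0.05; the input did not enter the fit. Standard errors were derived from the F statistic. The script was tested on simulated data. Alternatives were DESeq2 1.42.0, limma-voom (limma 3.58.1), other scalings and filters, a replicate block and leaving out each library. Ratios to input used a prior count of 0.5. The limit given for 0 counts is 3 counts and reflects counting error alone.

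The members and lists were chosen with earlier results of these data known. By rule, library values are given for Col1a1, Col1a2, Col2a1, Col3a1, Col4a1, Col4a2, Col6a1, Col9a1 and Col11a1, the 2 smallest p per sign and class, the extremes of input reads per length per class, and the genes at the length limit. Of each related list up to 3 genes with the smallest p are named, most by their fold change alone.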

Additional observations from a re-analysis of the deposited data

How the results depend on the processing

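No collagen gene passed the threshold under any of 13 alternative settings, and the smallest adjusted p that a named collagen gene reached was 0.450, in edgeR without V5 replicate 3. Over all genes, 9 passed without a filter on low counts and 4 with limma-voom, and 0 to 2 passed when 1 library was left out, with 2 without V5 replicate 2 and 1 without V5 replicate 3. None of these was a collagen gene. Deviations of same-numbered V5 and wild-type libraries from their group means correlated at 0.0138, 0.00562 and 0.0602 across genes. Differently numbered ones correlated at -0.0468 to 0.0248. Wild-type replicates 1 and 3 correlated best with the V5 library of their own number, and wild-type replicate 2 with V5 replicate 1. Values so near 0 cannot settle whether the replicate numbers pair the libraries. With the replicate number as a block, 1 gene passed over all genes and 0 collagen genes. The median log2 fold change of the collagen genes was 0.12 with DESeq2 and ranged from 0.038 to 0.17 when 1 library was left out. The ratio of summed collagen CPM was 1.10 when each member had equal weight. The wild-type median log2 ratio to input was 0.37 without a minimum of counts, 0.27 from totals over the members, and 0.30 to 0.39 when 1 wild-type library was left out. Of the 20 tested collagen genes named with their libraries, 12 kept their sign in all settings and 8 changed it in at least 1. Where a gene is given with a single leave-out value, it is the one that moved furthest toward or past 0. Leaving out some other library moved the same gene the other way. The cause of these shifts was not tested. In the shallowest library, of 806648 counts, 0 counts allowed up to 3.72 CPM.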

Other observations

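Some collagen genes lie side by side in the genome. The spans of Col4a1 and Col4a2 overlap by 85 bp and those of Col4a3 and Col4a4 by 114 bp, while Col4a5 and Col4a6 are 1274 bp apart. The log2 fold changes of V5 over wild type within the overlapping pairs were -0.25 and 0.07 for Col4a1 and Col4a2, and 0.15 and -0.07 for Col4a3 and Col4a4, each smaller than its standard error. On chromosome 9 Col6a6, Col6a5 and Col6a4 follow each other with gaps of 27823 and 27854 bp, and their values were 0.40, 0.02 and 0.03.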
